A study of Mus musculus with 6 samples.

Results

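*Traj53*, *Traj52*, *Traj50*, *Traj49*, *Traj48* and *Traj47* are neighbouring J segments in the first part of the *Traj* array of the mouse T cell receptor (TCR) α locus, chosen because they lie on both sides of the promoter near *Traj49*. Earlier results of these data were known at that choice, which the p-values below do not take into account. In the IMGT assignments they are named TRAJ53, TRAJ52, TRAJ50, TRAJ49, TRAJ48 and TRAJ47. A sequence was counted for one of them when its J assignment listed that segment and no other. These 6 of the 53 *Traj* segments seen held 736730 of 3675237 sequences, which is 20.0% of all sequences. In array order *Traj53*, *Traj52* and *Traj50* come before *Traj49* and are called upstream here, and *Traj48* and *Traj47* come after it and are called downstream.

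The study asked whether rearrangement of the TCR α locus was skewed in SKG mice, and sequenced *Trav9*, *Trav11* and *Trav19* amplicons from pre-selection DP thymocytes, which are CD4+CD8α+TCRβ-CD69-CD5- cells sorted before a positive selection signal. SKG mice carry a spontaneous point mutation in an SH2 domain of the kinase ZAP70 that weakens TCR signalling, and the WT mice were BALB/c. Both came from breeding of SKG with BALB/c mice, and neither the age of the mice nor the number of animals per library is given in the sources used here. There was 1 library for each of the 3 amplicons in each of the 2 genotypes, so no value has a replicate check and every test compares 2 libraries, not the genotypes. The protocol describes cDNA made from RNA while the labels name genomic DNA, and the protocol is followed here.

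A V segment can join any J segment that is open to the recombinase. The T early α (TEA) promoter ahead of the array directs the first joins to the first *Traj* segments, and the promoter near *Traj49* is known to open segments further into the array. A later join deletes the earlier one and uses a J segment further downstream, so the position of the J segment in use moves along the array over time. Each *Traj* segment is preceded by a recombination signal, made of a nonamer, a spacer and a heptamer, which the recombinase recognises.

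The signals and segments below are those of the reference genome on either side of *Traj49*, not read from the mice used. They were read from NCBIM37, chromosome 14, plus strand, at the positions that GENCODE gives under the names of the 5 members it could be matched to. Each line starts with the signal, which lies just ahead of the segment position given, and capitals mark the nonamer and then the heptamer. *Traj53* (chr14:54782319-54782384), *Traj52* (chr14:54784991-54785056), *Traj50* (chr14:54787265-54787327), *Traj49* (chr14:54788361-54788419) and *Traj48* (chr14:54789484-54789543) follow in array order.
Traj53: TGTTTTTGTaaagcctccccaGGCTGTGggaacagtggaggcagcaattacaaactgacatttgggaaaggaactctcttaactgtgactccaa
Traj52: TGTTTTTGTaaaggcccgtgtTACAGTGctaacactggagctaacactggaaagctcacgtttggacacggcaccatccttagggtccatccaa
Traj50: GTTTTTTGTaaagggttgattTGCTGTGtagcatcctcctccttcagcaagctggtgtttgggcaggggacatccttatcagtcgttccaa
Traj49: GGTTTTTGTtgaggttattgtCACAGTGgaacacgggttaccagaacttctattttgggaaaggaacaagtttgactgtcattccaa
Traj48: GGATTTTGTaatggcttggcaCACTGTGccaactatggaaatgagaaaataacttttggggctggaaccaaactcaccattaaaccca

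All 5 signals had a spacer of 12 bases and ended at the base before the annotated segment. Each was set against the heptamer CACTGTG and the nonamer GGTTTTTGT on the strand of the segment only. The 3 upstream segments each matched 5 of the 7 heptamer bases, *Traj49* matched 6 and *Traj48* matched all 7. Over the 59 *Traj* segments named in the annotation the median was 6 of 7, and 16 matched all 7. *Traj49* matched all 9 nonamer bases and the other 4 matched 8, against a median of 7 of 9, and 20 of the 59 segments matched 8 or more. The upstream heptamers were thus further from these letters than the *Traj49* and *Traj48* heptamers, which is a description of the letters and not of their use. *Traj53* starts 6042 bases before *Traj49*, and *Traj48* starts 1123 bases after it.

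Within the libraries the 6 segments made up between 10.8% of sequences (SKG *Trav11*, 29805 of 275177) and 29.2% (WT *Trav19*, 124619 of 426678). In the *Trav9* libraries they held 322581 of 1587280 WT sequences, or 20.3%, and 119685 of 739330 SKG sequences, or 16.2%. At most 5 sequences in a library listed a member together with another J gene and were left out. *Traj51*, a pseudogene between *Traj52* and *Traj50*, was listed for 0 sequences in every library. Sequences were then split by V gene (each of 6 *Trav9* genes listed alone, *Trav11* with *Trav11d*, and *Trav19*), genotype and functionality class, and a share is the percentage of the sequences of that V gene, genotype and class. The IMGT class "productive" means an in-frame join without a stop codon, and values are of productive sequences unless stated. Their 95% Wilson intervals cover counting error only, because amplified sequences without molecular identifiers are not independent molecules.

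*Trav19* is among the V segments closest to the array, and its use of the 6 segments was high. In WT, *Traj53* took 7.77% of *Trav19* sequences, *Traj52* 4.54%, *Traj50* 3.73%, *Traj49* 5.75%, *Traj48* 5.82% and *Traj47* 1.86%. In SKG, *Traj53* took 8.29%, *Traj52* 2.89%, *Traj50* 2.39%, *Traj49* 5.37%, *Traj48* 6.32% and *Traj47* 1.49%. *Traj53* led in both libraries, and the lower SKG values were those of *Traj52* and *Traj50*, followed by *Traj47* and *Traj49*. *Traj52*, *Traj50* and *Traj47* lay below *Traj49* in both.

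*Trav9-4* had the largest share of the 6 segments together among the 8 V genes, 36.2% in WT and 29.7% in SKG. In WT, *Traj53* took 6.90% of *Trav9-4* sequences, *Traj52* 8.09%, *Traj50* 6.31%, *Traj49* 7.04%, *Traj48* 5.69% and *Traj47* 2.17%. In SKG, *Traj53* took 5.03%, *Traj52* 5.39%, *Traj50* 3.77%, *Traj49* 7.04%, *Traj48* 6.38% and *Traj47* 2.12%. The 3 upstream segments were lower in SKG while *Traj49* and *Traj47* stood at nearly the same value in both libraries.

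*Trav9-2* had a lower SKG value at all 6 segments, while *Trav9-3* did so at 4. In *Trav9-2* the values went from 4.68% to 3.25% at *Traj53*, from 5.05% to 3.04% at *Traj52*, from 2.68% to 2.13% at *Traj50*, from 4.57% to 3.21% at *Traj49*, from 4.24% to 3.60% at *Traj48* and from 1.59% to 0.975% at *Traj47*. *Trav9-3* went from 3.55% to 2.61% at *Traj53*, from 4.51% to 2.74% at *Traj52* and from 3.54% to 2.78% at *Traj50*, but from 4.85% to 5.0% at *Traj49*, from 3.95% to 4.24% at *Traj48* and from 1.70% to 1.51% at *Traj47*. In *Trav9-2* the lower values thus ran on past *Traj49*, and in *Trav9-3* they stopped before it and returned at *Traj47*.

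The *Trav9d* genes used the 6 segments less. In *Trav9d-2*, *Traj53* went from 4.11% in WT to 2.79% in SKG, *Traj52* from 4.24% to 1.98%, *Traj50* from 2.55% to 1.47%, *Traj49* from 1.77% to 1.97%, *Traj48* from 1.07% to 1.51% and *Traj47* from 0.545% to 0.719%. Among productive sequences, WT *Trav9d-2* was the combination that leaned most to the upstream side. The SKG values of *Trav9d-2* were lower upstream and higher from *Traj49* on. *Trav9d-3* went from 1.87% to 1.31% at *Traj53*, from 1.65% to 1.14% at *Traj52*, from 1.40% to 0.980% at *Traj50*, from 2.21% to 1.83% at *Traj49*, from 1.47% to 1.62% at *Traj48* and from 0.735% to 0.532% at *Traj47*. *Trav9d-4* had the lowest total of the 8 V genes, 5.88% in WT and 4.81% in SKG, with *Traj53* from 0.591% to 0.356%, *Traj52* from 0.624% to 0.534%, *Traj50* from 1.37% to 0.780%, *Traj49* from 1.59% to 1.17%, *Traj48* from 1.22% to 1.53% and *Traj47* from 0.480% to 0.443%. In both genes *Traj48* was the one segment with a higher SKG value.

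*Trav11*, the V gene of invariant natural killer T cells, differed in form from the other V genes. *Traj50* (4.86% in WT, 3.08% in SKG), *Traj48* (5.10% and 3.61%) and *Traj47* (3.63% and 3.14%) were common. *Traj53* (1.19% and 0.296%), *Traj52* (0.278% and 0.145%) and *Traj49* (0.170% and 0.239%) were rare. The rare segments rested on 1634 WT and 452 SKG sequences for *Traj53*, on 383 and 222 for *Traj52* and on 234 and 365 for *Traj49*. *Traj49* was therefore the lowest of the 6 segments for WT *Trav11*, although it led in WT *Trav9-3*, *Trav9d-3* and *Trav9d-4*. In none of these was *Traj49* separated from its neighbour in the order with the error described below. Among unproductive sequences *Traj52* was the lowest in WT *Trav11*, and *Traj49* led in 0 of 8 WT V genes.

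**Figure D1:**
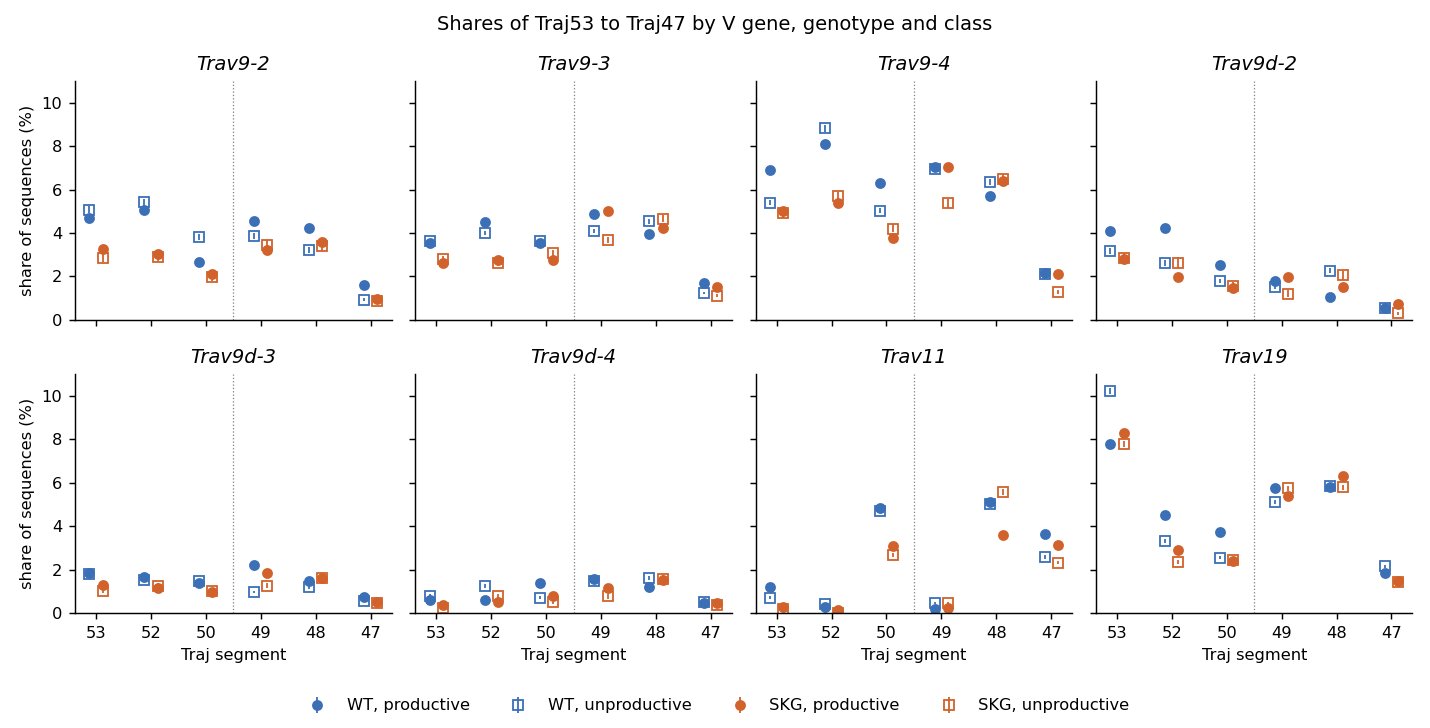
Share of sequences (%, y axis) of each *Traj* segment (x axis, array order) in 8 panels, 1 per V gene. Filled circles are productive and open squares unproductive sequences, blue is WT and orange SKG, each point is 1 library, bars are 95% Wilson intervals and the dotted line separates the upstream segments from *Traj49* and the downstream segments. The SKG points lie below the WT points for *Traj52* and *Traj50* in every panel among productive sequences, and *Trav11* shows *Traj50*, *Traj48* and *Traj47* well above the other 3 segments.

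*Traj47* was the lowest of the 6 segments in 13 of 16 combinations of V gene and genotype. The other 3 were *Trav11* in both genotypes and SKG *Trav9d-4*. IMGT lists *Traj47* as an open reading frame and the other 5 as functional. In WT, *Traj52* was the highest in 3 V genes, *Traj49* in 3, *Traj53* in 1 and *Traj48* in 1. In SKG, *Traj52* was the highest in 0 V genes, and *Traj49* led in 3, *Traj48* in 3 and *Traj53* in 2.

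Many of these orders were not resolved. The lists hold no replicates, so the error of a share was taken as the counting error widened by a factor per V gene, which measures how far the SKG to WT ratios of productive and unproductive sequences disagreed over segments. Error that both classes of a library share does not enter this factor. For the orders, the factor is applied to ratios of 2 segments within 1 library, whose spread it does not measure directly. The variance factors ranged from 25.9 (*Trav9d-2*) to 99.8 (*Trav19*). With this error, neighbours in the order had 95% intervals of their ratio above 1 in 15 of 40 pairs in WT and in 9 of 40 in SKG. Among the resolved steps were *Traj53* over *Traj48* in *Trav19* in both genotypes, *Traj50* over *Traj47* in WT *Trav9-3*, and *Traj50* over *Traj53* in SKG *Trav11*. *Traj52* and *Traj53* were not separated in WT *Trav9-2* or *Trav9d-2*, and *Traj49* and *Traj48* were not separated in either genotype of *Trav19*. The orders and the intervals came from the same counts, and the intervals were not adjusted for the number of pairs. Among unproductive sequences, 9 of 40 pairs in WT and 5 of 40 in SKG were resolved. *Traj53* over *Traj48* in SKG *Trav19* was not resolved in that class.

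Across the 8 V genes, *Traj52* and *Traj50* had lower shares in SKG than in WT in 8 of 8 and *Traj53* in 7 of 8, the exception being *Trav19*. The median log2 ratio of SKG to WT shares was -0.52 for *Traj53*, -0.69 for *Traj52* and -0.65 for *Traj50*. It was -0.05 for *Traj49*, which was lower in 4 of 8, 0.13 for *Traj48*, which was lower in 2 of 8, and -0.19 for *Traj47*, which was lower in 7 of 8. Upstream of *Traj49* the share was thus lower in SKG in 23 of 24 pairs of segment and V gene, with a median of -0.61, and downstream in 9 of 16, with a median of -0.07. Over all 336 pairs tested, 42.0% were lower in SKG and the median was 0.07. The 6 *Trav9* genes of a genotype share 1 library, so the V genes are not independent counts.

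The lower values upstream of *Traj49* continued those of the segments ahead of them, and the values after *Traj47* went the other way. The segments before *Traj53* were lower in SKG in 23 of 24 pairs with a median log2 ratio of -0.55, and those after *Traj47* were lower in 82 of 264 pairs with a median of 0.18. Together the segments before *Traj53* held 42.7% of WT and 39.2% of SKG *Trav19* sequences, and 10.3% and 7.42% of *Trav11* sequences. Those after *Traj47* held 27.8% and 34.1% of *Trav19* and 74.4% and 82.1% of *Trav11*. *Traj49*, *Traj48* and *Traj47* lay between the medians of both sides.

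Of the 48 pairs of member and V gene, 6 passed the test as lower in SKG and 0 as higher (quasi-binomial comparison with the widened error, Benjamini-Hochberg adjustment over all 336 pairs). This is 12.5% of the member pairs, beside 4.46% lower and 1.19% higher among all 336. All 6 were upstream of *Traj49*, 6 of 24, with 0 of 24 at *Traj49*, *Traj48* and *Traj47*, where 2 of 24 had an unadjusted p under 0.05. The calls were not particular to the upstream members. Among the segments before *Traj53*, 8 of 24 pairs passed as lower, and among those after *Traj47*, 1 of 264. Without the adjustment, 17 of the 48 pairs had a p under 0.05, all lower in SKG, beside 10.4% lower and 11.3% higher among all 336.

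*Traj52* was called in 4 V genes. It fell in *Trav9-3* with a log2 odds ratio of -0.75 (SE 0.15, adjusted p = 0.00135), in *Trav9-4* with -0.63 (SE 0.14, adjusted p = 0.00276), in *Trav9d-2* with -1.13 (SE 0.30, adjusted p = 0.0214) and in *Trav9-2* with -0.76 (SE 0.23, adjusted p = 0.0349), all from the quasi-binomial comparison. In the same quasi-binomial comparison the other upstream segments of *Trav9-4* passed as well, *Traj50* with -0.78 (SE 0.16, adjusted p = 0.00138) and *Traj53* with -0.48 (SE 0.15, adjusted p = 0.0349). All called pairs came from the *Trav9* libraries, whose V genes had the lowest variance factors. These libraries held the most sequences, but this did not hold for each V gene. *Trav19* had 252048 SKG productive sequences and *Trav9d-2* 33917. In *Trav19*, the quasi-binomial comparison gave *Traj52* a log2 odds ratio of -0.68 (SE 0.22, adjusted p = 0.0688) and *Traj50* one of -0.66 (SE 0.25, adjusted p = 0.110), values within the range of the called pairs. In *Trav11*, *Traj53* had the largest negative value of the 48, -2.02 (SE 0.68, adjusted p = 0.0817, quasi-binomial comparison).

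No pair at *Traj49*, *Traj48* or *Traj47* passed, and their intervals bound what could have been seen. In *Trav9-4*, *Traj49* had a log2 odds ratio of 0.00028 (SE 0.13). In *Trav19* it was -0.10 (SE 0.18). *Traj48* was 0.18 (SE 0.14) in *Trav9-4* and 0.12 (SE 0.17) in *Trav19*, and -0.52 (SE 0.24, adjusted p = 0.191, quasi-binomial comparison) in *Trav11*. *Traj47* ranged from -0.71 (SE 0.40) in *Trav9-2* to 0.40 (SE 0.55) in *Trav9d-2*. For the less used segments such errors would hide changes of the size called upstream.

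**Figure D2:**
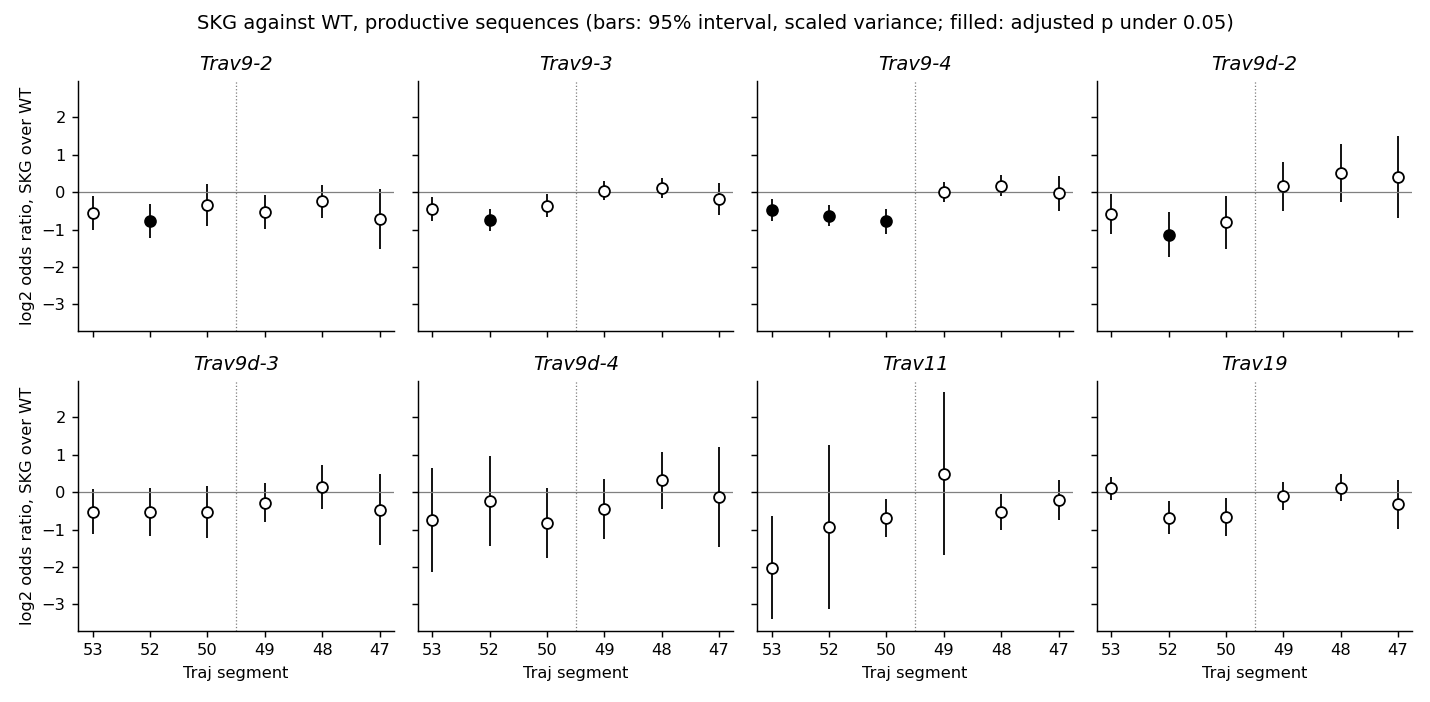
Log2 odds ratio of SKG over WT (y axis) for each *Traj* segment (x axis, array order), 1 panel per V gene, productive sequences. Bars are 95% intervals with the widened variance, filled circles have an adjusted p under 0.05, and the dotted line lies between *Traj50* and *Traj49*. The 6 filled circles all lie left of the dotted line and below 0.

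By size alone, 14 of the 48 member pairs were at least 1.5-fold lower in SKG, which is 29.2%, beside 12.2% of all 336 pairs. Of these, 13 were upstream, 13 of 24, and 1 was downstream, *Traj47* in *Trav9-2*. In *Trav11* 3 of 6 members passed this fold, *Traj53*, *Traj52* and *Traj50*, beside 11.1% of all *Traj* segments tested for that V gene. In *Trav9-2* (14.0% of all segments), *Trav9-4* (9.30%), *Trav9d-2* (16.3%), *Trav9d-4* (14.0%) and *Trav19* (19.0%) 2 of 6 members did, in *Trav9-3* (6.98%) 1 and in *Trav9d-3* (6.98%) 0. No member pair was at least 1.5-fold higher in SKG, where 11.3% of all pairs were. By V gene, the share of all segments that were higher by this fold was 18.6% in *Trav9-2*, 2.33% in *Trav9-3*, 14.0% in *Trav9-4*, 9.30% in *Trav9d-2*, 0% in *Trav9d-3*, 4.65% in *Trav9d-4*, 11.1% in *Trav11* and 31.0% in *Trav19*. In *Trav19* the segments higher in SKG by this fold thus all lay outside the 6.

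The ratio of upstream to downstream sequences puts both sides of *Traj49* in 1 value per V gene and library. In WT, *Traj53*, *Traj52* and *Traj50* together outnumbered *Traj48* and *Traj47* together 2.71 to 1 in *Trav9-4*, 2.05 to 1 in *Trav9-3*, 2.13 to 1 in *Trav9-2*, 2.23 to 1 in *Trav9d-3* and 2.09 to 1 in *Trav19*. *Trav9d-2* stood at 6.76 and *Trav9d-4* at 1.52, and *Trav11* at 0.724 was the only WT value below 1. In SKG the ratios were 1.67 in *Trav9-4*, 1.41 in *Trav9-3*, 1.84 in *Trav9-2*, 1.60 in *Trav9d-3*, 1.74 in *Trav19*, 2.80 in *Trav9d-2*, 0.847 in *Trav9d-4* and 0.521 in *Trav11*. The SKG ratio was the lower one in 8 of 8 V genes.

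The decrease passed the test in 3 of the 8 V genes (quasi-binomial comparison, Benjamini-Hochberg over 8 V genes). In that quasi-binomial comparison the log2 change was -0.70 in *Trav9-4* (SE 0.14, adjusted p = 0.00011), -0.54 in *Trav9-3* (SE 0.14, adjusted p = 0.0018) and -1.27 in *Trav9d-2* (SE 0.36, adjusted p = 0.00245). The other V genes did not pass the quasi-binomial comparison, with -0.84 in *Trav9d-4* (SE 0.46, adjusted p = 0.148), -0.48 in *Trav9d-3* (SE 0.31, adjusted p = 0.166), -0.47 in *Trav11* (SE 0.28, adjusted p = 0.160), -0.26 in *Trav19* (SE 0.18, adjusted p = 0.181) and -0.21 in *Trav9-2* (SE 0.23, adjusted p = 0.375). The *Trav19* value depended on *Traj53*, since without it the change was -0.67 (adjusted p = 0.00829, quasi-binomial comparison). With the largest of the 8 factors used for every V gene, 0 member pairs and 1 V gene (*Trav9-4*) passed.

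**Figure D3:**
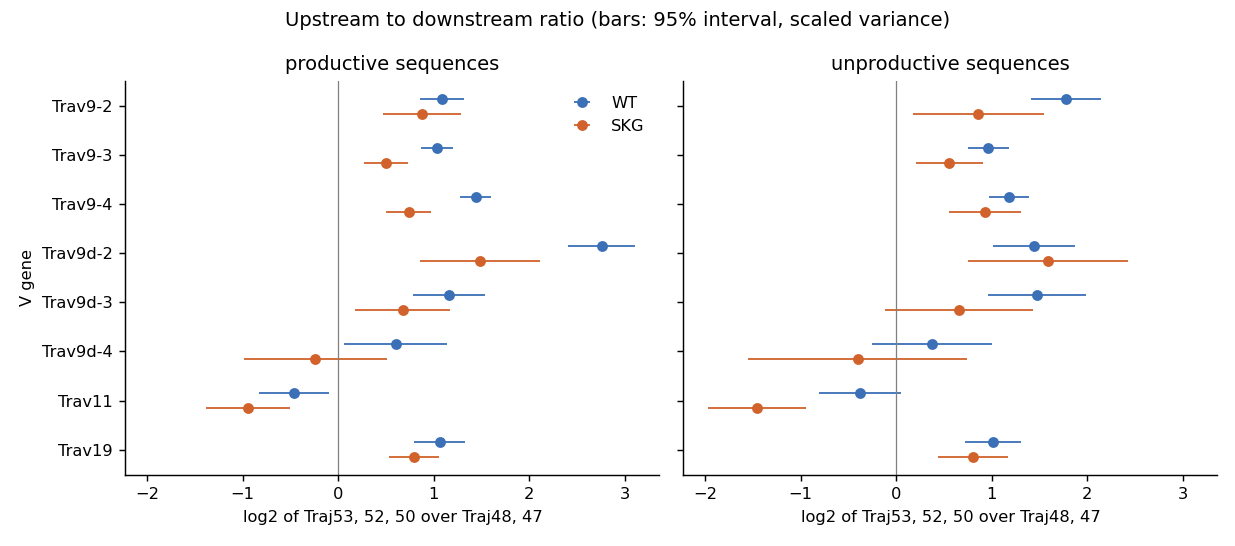
Log2 of upstream (*Traj53*, *Traj52*, *Traj50*) over downstream (*Traj48*, *Traj47*) sequences (x axis) for each V gene (y axis), WT in blue and SKG in orange, productive sequences on the left and unproductive on the right. Points are single libraries and bars are 95% intervals with the widened variance; the SKG point lies left of the WT point in 8 of 8 V genes among productive and in 7 of 8 among unproductive sequences.

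Unproductive joins come from cells of the same libraries and cannot give a receptor. Among them the 3 upstream segments were also lower in SKG in 23 of 24 pairs, with a median log2 ratio of -0.51, beside 44.0% of all 336 pairs lower. The medians by segment were -0.61 for *Traj53*, -0.62 for *Traj52*, -0.37 for *Traj50*, -0.16 for *Traj49*, 0.04 for *Traj48* and -0.32 for *Traj47*. *Traj48* was again the highest and *Traj47* was lower in 8 of 8 V genes. None of the 48 member pairs passed the test, as 0% of all 336 pairs did, and 8 of the 48 had an unadjusted p under 0.05, all upstream and lower in SKG (quasi-binomial comparison), beside 5.06% lower and 4.46% higher among all 336. Among the 24 pairs of the segments before *Traj53*, 8 were lower at this level too.

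The upstream to downstream ratio of unproductive sequences was lower in SKG in 7 of 8 V genes. In *Trav9d-2*, which had the largest change among productive sequences, it was 2.72 in WT and 3.0 in SKG, a log2 change of 0.14 (SE 0.47). The highest unproductive ratio was that of WT *Trav9-2*, at 3.43, beside 1.81 in SKG *Trav9-2*. The changes of *Trav9-4* (-0.26, SE 0.21, adjusted p = 0.315) and *Trav9-3* (-0.41, SE 0.20, adjusted p = 0.130) no longer passed the quasi-binomial comparison. *Trav11* was the only V gene to pass, with 0.769 in WT, 0.364 in SKG and a log2 change of -1.08 (SE 0.33, adjusted p = 0.0185, quasi-binomial comparison). The classes thus gave like directions in most V genes and a called change in different ones, and the difference between classes was not tested.

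Since later joins delete earlier ones, each segment was also set against the sequences that used it or any segment after it. On this scale the upstream segments were lower in SKG in 23 of 24 pairs, *Traj49* in 6 of 8, *Traj48* in 5 of 8 and *Traj47* in 7 of 8. It was computed for the 6 segments only, so no count over all segments stands beside these. By plain shares, the segments before *Traj53* were lower in 23 of 24 pairs too. In *Trav9-4*, *Traj52* took 10.2% of the sequences at or after it in WT and 6.40% in SKG, *Traj50* 8.89% and 4.78%, *Traj49* 10.9% and 9.39%, and *Traj48* 9.89% and 9.40%. In *Trav19*, *Traj53* took 13.6% in both, *Traj52* 9.16% and 5.49%, *Traj50* 8.29% and 4.81%, *Traj49* 13.9% and 11.4%, and *Traj48* 16.4% and 15.1%. The median log2 ratio of SKG to WT on this scale was -0.58 for *Traj53*, -0.77 for *Traj52*, -0.75 for *Traj50*, -0.25 for *Traj49*, -0.05 for *Traj48* and -0.33 for *Traj47*. In *Trav9-2* the values were 3.61% and 2.49% for *Traj50* and 6.39% and 3.85% for *Traj49*, so that *Traj49* was the more lowered of both there. Among unproductive sequences the medians were -0.44 for *Traj50* and -0.35 for *Traj49*. The step from *Traj50* to *Traj49* on this scale was thus smaller among unproductive sequences and was not seen in every V gene.

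The same ratio, 3 segments before against 2 after a middle segment, was computed at 31 places along the array, a comparison added after the data were seen. The windows were built from the 36 segments with at least 50 productive sequences in all 8 V genes and passed over 8 others, among them *Traj45* and *Traj44*, so that the window around *Traj48* sets *Traj47* and *Traj43* as the segments after it. Around *Traj49* the median log2 change over the 8 V genes was -0.51 and the change was below 0 in 8 of 8. Only the windows around *Traj48* (-0.55) and *Traj50* (-0.54) had lower medians, and they share segments with it. A change below 0 was common along the array, with 16 to 22 of the 31 windows below 0 in each V gene. The windows around *Traj50*, *Traj48* and *Traj47* were also below 0 in 8 of 8 V genes. Those around *Traj28*, *Traj27*, *Traj26* and *Traj6* were below 0 in 7 of 8. Within single V genes, 0 other windows were lower than that around *Traj49* in *Trav9d-2* and *Trav9d-4*, 1 in *Trav9-3* and *Trav9-4*, 2 in *Trav9d-3* and 4 in *Trav11*, but 14 in *Trav9-2* and 15 in *Trav19*. In *Trav9-2* and *Trav19* the *Traj49* window was therefore in the middle of the range.

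**Figure D4:**
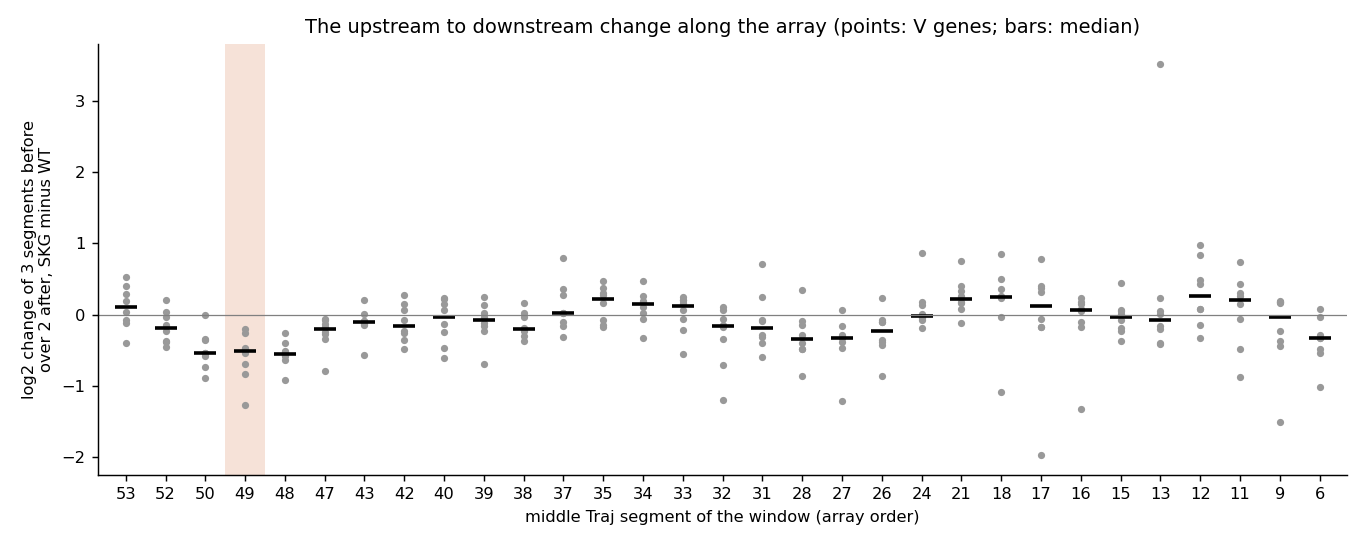
Log2 change, SKG minus WT, of the ratio of the 3 segments before to the 2 segments after a middle segment (y axis), for 31 middle segments in array order (x axis), built from the segments measured in all 8 V genes. Grey points are V genes, black bars their medians, and shading marks *Traj49*; neighbouring windows share segments. The 3 lowest medians are those at *Traj48*, *Traj50* and *Traj49*.

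Also after the data were seen, the boundary between both sides was placed in turn after each segment, with all members before it set against all members after it. In *Trav9-4* the log2 change was -0.21 (SE 0.16) with the boundary after *Traj53*, -0.39 (SE 0.12) after *Traj52*, -0.65 (SE 0.12) after *Traj50*, -0.53 (SE 0.13) after *Traj49* and -0.27 (SE 0.24) after *Traj48*. In *Trav9-3* it was -0.54 (SE 0.13) after *Traj52*, -0.55 (SE 0.12) after *Traj50* and -0.35 (SE 0.13) after *Traj49*. In *Trav9d-2* it was -0.74 (SE 0.27), -1.11 (SE 0.28) and -1.09 (SE 0.35) at the same 3 boundaries. In *Trav9-4*, *Trav9-3* and *Trav9d-2* the neighbouring boundary with the nearest value differed from the lowest by less than the SE. The differences between boundaries were not tested. In *Trav9d-3* the lowest value lay after *Traj49* (-0.40, SE 0.29), beside -0.37 (SE 0.26) after *Traj50*. In *Trav9d-4* it also lay after *Traj49* (-0.76, SE 0.41), beside -0.56 (SE 0.41) after *Traj50*. In *Trav9-2* it lay after *Traj52* (-0.23, SE 0.20), beside -0.14 (SE 0.20) after *Traj50*. In *Trav19* the change was 0.33 (SE 0.17) after *Traj53*, -0.21 (SE 0.16) after *Traj50* and -0.22 (SE 0.17) after *Traj49*. In *Trav11* it was -1.55 (SE 0.69) after *Traj53* and -0.50 (SE 0.28) after *Traj50*.

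The share of productive sequences among the sequences of a segment was higher in SKG than in WT in 38 of 48 pairs, or 79.2%, and for the segments outside the 6 in 76.0% of pairs, a similar share. In *Trav19*, 48.6% of *Traj53* sequences were productive in WT and 65.9% in SKG, beside 55.4% and 64.1% for the *Traj* segments outside the 6. In *Trav9-4*, *Traj49* stood at 63.4% in WT and 75.7% in SKG, beside 62.6% and 69.9% for the other segments. *Trav9d-2* went the other way upstream, with *Traj52* at 77.5% in WT and 59.1% in SKG and *Traj53* at 73.4% and 65.3%, beside 67.6% and 65.8% for the other segments.

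In *Trav11*, 46.2% of 829 WT *Traj52* sequences were productive (95% Wilson interval 42.8% to 49.6%) and 97.4% of 228 SKG sequences (94.4% to 98.8%), beside 54.8% and 55.8% for the *Traj* segments outside the 6. In numbers, 383 productive and 446 unproductive WT sequences stood against 222 and 6 in SKG. *Trav11* *Traj49* was low in both, at 30.3% of 772 WT and 38.7% of 942 SKG sequences. How many rearrangements lie behind these small numbers was not analysed here.

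The SKG to WT changes were compared between *Trav11*, *Trav9d-3* and *Trav19*, which come from separate amplicons, for each member and for the ratio, in 21 comparisons. None passed (lowest adjusted p = 0.0948, quasi-binomial comparison), and 2 had an unadjusted p under 0.05. The lowest was *Traj53*, with -2.02 in *Trav11* and 0.10 in *Trav19*, a difference of -2.12 (SE 0.70). The next was *Traj48*, with -0.52 in *Trav11* and 0.12 in *Trav19*, a difference of -0.65 (SE 0.29). The change of the upstream to downstream ratio differed by -0.21 (SE 0.34) between *Trav11* and *Trav19*.

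The pattern of each segment over the 16 combinations of V gene and genotype was compared among 43 segments by the correlation of log2 shares, which is given as a description because the combinations share libraries. *Traj53* was most like *Traj52* (Pearson's r = 0.90) and *Traj58* (0.90), *Traj52* most like *Traj49* (0.92) and *Traj53* (0.90), and *Traj49* most like *Traj43* (0.93) and *Traj52* (0.92). *Traj50* was most like *Traj47* (0.86) and *Traj48* (0.77), *Traj48* most like *Traj42* (0.90) and *Traj47* (0.87), and *Traj47* most like *Traj48* (0.87) and *Traj50* (0.86). This grouping follows the segments that are rare or common in *Trav11*. Over the 14 combinations without *Trav11*, added later, *Traj49*, *Traj48* and *Traj47* were most like each other (0.94 to 0.99), *Traj52* was most like *Traj50* and *Traj53* (0.92 each), and *Traj53* was most like *Traj56* (0.96) and *Traj57* (0.95). *Traj50*, next to *Traj49*, was most like *Traj52* (0.92) and then *Traj49* (0.89).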

How the data were processed

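According to the study's methods, the authors amplified cDNA with a *Trav* and a constant region primer, built clonal sequences with MiXCR, trimmed primers with cutadapt (1.13 in the submitters' processing notes, which name build mm10), removed exact duplicates and had IMGT/HighV-QUEST name the genes. Each sequence in the deposited lists has its functionality class, V and J assignment as text. Shares count distinct sequences, not reads or cells, and differing copies of 1 rearrangement count separately.

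Sequences with a single *Traj* gene and the V gene listed alone (*Trav11* and *Trav11d* together) were counted. Each V gene had at least 17690 sequences per library and class. For independent sequences a count of 0 would have allowed at most 0.017%. The sequences are not independent, so the bound that applies here is higher. SKG was compared with WT on log odds, with binomial variance times a factor per V gene, two-sided, against a t distribution. The factor was Pearson's chi-square divided by its degrees of freedom, from a logistic fit of productive against unproductive sequences with segment and library terms, over segments with 50 or more sequences per library. Pairs needed 50 productive sequences over both libraries, which all 48 member pairs had. The calculation was tested on simulated data. Named are the 6 segments and, for each, the 2 others with the highest correlation of log2 share (0.5 added to counts). The members and lists were chosen with earlier results of these data known.

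Positions came from GENCODE on NCBIM37, with names matched through RefSeq. Heptamers were sought from 4 bases before to 2 bases inside each annotated start with spacers of 11 to 13 bases, and the best match was kept. Alternatives were other classes, V and J filters, variance factors, totals and groupings. Python 3.11.15, numpy 2.4.6, pandas 2.3.3, scipy 1.17.1, statsmodels 0.14.6 and matplotlib 3.10.9 were used.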

Additional observations from a re-analysis of the deposited data

How the results depend on the processing

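With unproductive sequences, 0 member pairs were called lower in SKG instead of 6, and 1 V gene instead of 3 for the upstream to downstream ratio, whose log2 change was -0.41 in *Trav9-3* and -0.26 in *Trav9-4*, no longer called, 0.14 in *Trav9d-2*, of opposite sign, and -1.08 in *Trav11*, newly called. Single segments whose log2 odds ratio changed sign there were *Traj48* in *Trav9-2* (0.067), *Trav9d-2* (-0.15), *Trav9d-4* (-0.021), *Trav11* (0.17) and *Trav19* (-0.011), *Traj49* in *Trav9-3* (-0.16), *Trav9-4* (-0.40), *Trav9d-2* (-0.35), *Trav9d-3* (0.37), *Trav11* (-0.025) and *Trav19* (0.18), *Traj52* (0.0026) and *Traj47* (-0.85) in *Trav9d-2*, and *Traj53* in *Trav19* (-0.43). With both classes together, 11 pairs and 7 V genes were called lower, with *Trav9-2* (-0.43), *Trav9d-3* (-0.60), *Trav9d-4* (-0.79) and *Trav11* (-0.74) added, and *Traj49* in *Trav9-4* (-0.11), *Traj53* in *Trav19* (-0.14) and *Traj49* in *Trav19* (0.011) changed sign. With binomial variance alone, 33 pairs were called lower and 10 higher and 8 V genes lower, which added *Trav9-2* (-0.21), *Trav9d-3* (-0.48), *Trav9d-4* (-0.84), *Trav11* (-0.47) and *Trav19* (-0.26) by construction. The largest factor left 0 pairs and 1 V gene, with *Trav9-3* (-0.54) and *Trav9d-2* (-1.27) no longer called. Without *Traj53*, *Trav19* was called (-0.67). *Traj49* changed sign in *Trav9-4* with the first-listed V gene (-0.0056), and in *Trav9-3* (-0.022) and *Trav9-4* (-0.057) with shares among *Traj53* and later segments. At 2-fold instead of 1.5-fold, 2 of 48 member pairs were lower in SKG instead of 14, beside 3.87% of all 336 pairs. Apart from the shifts by construction the causes were not tested. No paired analysis was possible because each group has 1 library and the labels give no replicate numbers. Genotype and library cannot be told apart, and the small counts of *Trav11* *Traj53*, *Traj52* and *Traj49* limit those values.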
